A study of Mus musculus with 25 samples.

Results

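In mouse soleus muscle, 10 genes of the germline were followed with and without the de novo DNA methyltransferase Dnmt3a. The genes were Dazl, Ddx4, Sycp1, Sycp3, Mael, Piwil1, Piwil2, Tdrd1, Stk31 and Hormad1. They were taken by gene symbol from the table of RNA counts, which held 52636 genes, and all 10 were found in it. They were chosen by name because they belong to the class of genes that promoter methylation normally keeps silent outside the germline.

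The study asked what loss of Dnmt3a in mature muscle does to the transcriptome at rest and after a bout of running. RNA came from the soleus, a slow postural muscle, of 25 mice on a C57BL/6 background, 13 males and 12 females, 12 weeks old. WT mice were Dnmt3a flox/flox animals without Cre. In mD3AKO mice the same floxed alleles, with exon 19 between the loxP sites, were recombined by a Cre transgene under the muscle creatine kinase promoter (mCK-Cre), which is active in differentiated muscle fibers. Other cells of the tissue, such as satellite cells, are presumed to keep Dnmt3a. The 4 groups were rested WT (n = 5), rested mD3AKO (n = 7), WT that ran on a treadmill for 30 minutes and were killed 60 minutes later (n = 7) and exercised mD3AKO (n = 6). Rested mice had been placed on a sham treadmill. The floxed alleles were thus common to all 4 groups.

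Germ cells need proteins that no other tissue uses, for pairing chromosomes in meiosis, for translating stored messages and for silencing transposons with PIWI-interacting RNAs (piRNAs). Many of their genes have promoters rich in CpG, the pair of bases that DNA methyltransferases act on. These promoters become methylated in the embryo as the body's tissues are set aside, and they are textbook examples of genes whose silence in somatic cells depends on methylation. Dnmt3a and its relative Dnmt3b place such methylation anew, and Dnmt1 copies it at cell division. Repressors that bind DNA add a layer of silencing. Among them are E2F6, which binds the letters TCCCGC, and the MGA and MAX pair of the PRC1.6 complex, which binds the E-box CACGTG.

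Promoter sequences from RefSeq (build GRCm38.p6, the same assembly as mm10) were matched by symbol for 9 of the 10 genes. No window was given for Piwil2. The 250 bases before the start site held 11 to 31 CpG in the 9 genes, with a median of 18. Over all 32851 windows of that length, from 27025 genes, the median was 6 and the quartiles were 2 and 16. Ddx4 had the most CpG (31) and Tdrd1 the fewest (11). The RefSeq start of Ddx4 lay 165 bases from the gene start used for counting, and 165 bases of its window lay in an annotated exon. The window of Piwil1 lay 33722 bases from the gene start used for counting, so it belongs to another start site of that gene. Shown are 4 windows that hold no base of an annotated exon, chosen to set promoters of genes with reads beside those of genes without: Dazl, which had reads in every library, Tdrd1, with 5 reads in all, and Sycp1 and Hormad1, with none. CpG pairs are in capitals, and each sequence runs 5′ to 3′ on the strand of its gene.
Dazl, chr17:50293621-50293870, minus strand: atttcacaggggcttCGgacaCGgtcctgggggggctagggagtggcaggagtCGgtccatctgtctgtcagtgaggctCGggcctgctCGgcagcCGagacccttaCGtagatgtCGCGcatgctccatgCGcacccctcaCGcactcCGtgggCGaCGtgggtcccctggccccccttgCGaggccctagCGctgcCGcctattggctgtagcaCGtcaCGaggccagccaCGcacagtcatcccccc
Tdrd1, chr19:56825959-56826208, plus strand: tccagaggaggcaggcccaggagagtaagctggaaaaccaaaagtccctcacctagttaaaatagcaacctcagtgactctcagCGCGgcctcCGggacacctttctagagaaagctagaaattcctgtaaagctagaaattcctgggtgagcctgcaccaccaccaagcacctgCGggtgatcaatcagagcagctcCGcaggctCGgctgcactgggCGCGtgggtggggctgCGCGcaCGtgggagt
Sycp1, chr3:102936101-102936350, minus strand: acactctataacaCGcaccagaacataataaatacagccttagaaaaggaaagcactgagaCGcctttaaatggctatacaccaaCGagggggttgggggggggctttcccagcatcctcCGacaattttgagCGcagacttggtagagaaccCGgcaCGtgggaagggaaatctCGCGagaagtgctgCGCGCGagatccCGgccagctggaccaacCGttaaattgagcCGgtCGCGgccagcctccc
Hormad1, chr3:95559427-95559676, plus strand: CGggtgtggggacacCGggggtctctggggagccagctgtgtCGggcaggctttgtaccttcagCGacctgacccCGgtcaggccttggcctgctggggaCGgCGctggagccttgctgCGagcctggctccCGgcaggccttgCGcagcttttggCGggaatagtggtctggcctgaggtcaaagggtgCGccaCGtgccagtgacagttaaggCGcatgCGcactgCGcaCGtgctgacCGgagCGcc
The E-box CACGTG, which reads the same on both strands and holds a CpG itself, was in 8 of the 9 windows. It was in 6.02% of all windows, and in 9.61% of the 11685 windows with at least 11 CpG. Dazl was the gene without it. Hormad1 had CACGTG at 57 and at 20 bases before its start, Sycp1 at 94 and Tdrd1 at 11, each counted from the first base of the match. Sycp3 had it at 64 and at 43 bases. The letters TCCCGC, or GCGGGA on the other strand, which do not overlap CACGTG, were in 4 of the 9 windows (Ddx4, Sycp3, Mael and Hormad1), against 16.9% of all windows and 38.6% of the windows with at least 11 CpG. These matches describe the sequence only.

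The libraries held 22671457 to 37431801 counted reads, with a median of 32189360. Dnmt3a (chromosome 12, 3806007 to 3914443, plus strand) was measured first, as a check of the genotype labels. Its level was 116.2 ± 13.3 CPM (reads relative to the TMM-scaled size of the library, mean ± SD) in 12 WT mice, with a range of 93.4 to 130.5, and 40.9 ± 5.86 CPM in 13 mD3AKO mice, with a range of 34.6 to 53.9. The ranges did not overlap, and the log2 fold change was −1.52 (SE 0.07, edgeR quasi-likelihood test, adjusted p = 1.519e-13). In whole muscle, fewer cells of a type and less RNA per cell cannot be told apart. One library stood apart. In rested mD3AKO mouse 15 the 3 most counted genes took 39.5% of the reads, against 15.5% to 20.3% in the other 24 libraries. The library of mouse 15 had mt-Rnr2, CT010467.1 and mt-Rnr1 as these genes. Its TMM factor was 0.631, and where it bears most on a result the value without it is given. The slow myosin heavy chain Myh7, expected of soleus, stood at 11940 CPM. The list of 9 muscle fiber genes, which also held Acta1 and Ckm of all fibers, ran from Acta1 at 30510 CPM to Tnnc1 at 1833 CPM, and none was called for genotype.

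Over all 25 libraries the 10 germline genes together had 1715 reads, between 38 and 95 in a library, and Piwil2 alone had 1268 of them. The other 9 genes had 10 to 32 reads in a library. Their summed reads were 219 in 12 WT mice and 228 in 13 mD3AKO mice. Piwil2, Sycp3 and Dazl had at least 1 read in every library. Ddx4 had reads in 22 libraries, Piwil1 in 15, Mael in 7, Stk31 in 5 and Tdrd1 in 4. Sycp1 and Hormad1 had no read in any library. In the table as a whole, 17238 genes (32.7%) had no read in any library.

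**Figure D1:**
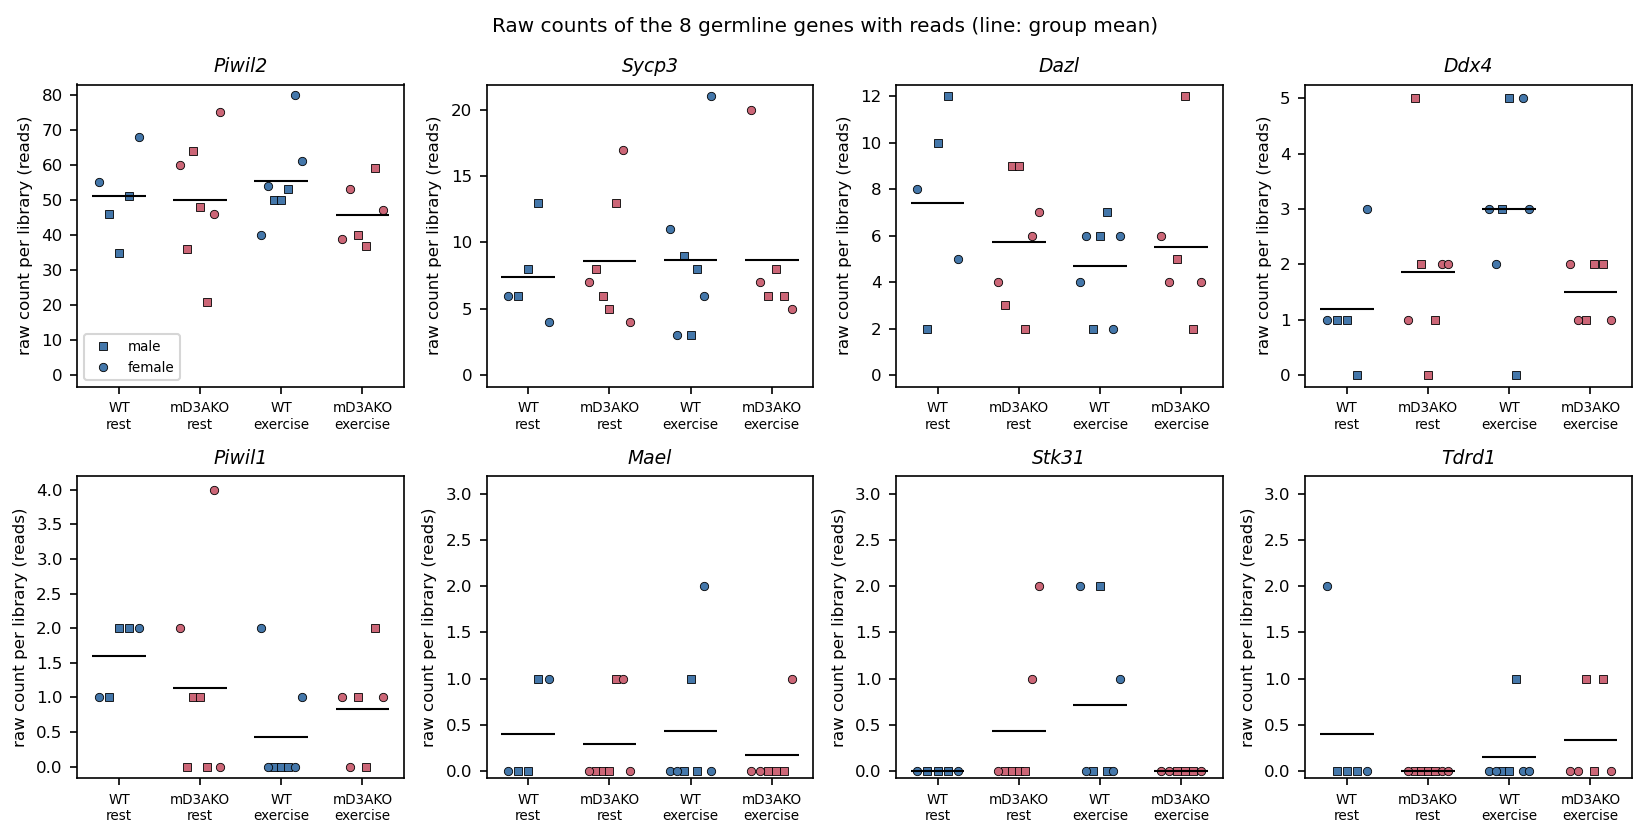
Raw counts in each library (vertical axis, reads) for the 8 germline genes with reads, in the 4 groups; squares are males, circles females and the line is the group mean, and the vertical scales differ. Piwil2 lies between 21 and 80 reads, Sycp3 between 3 and 21 and Dazl between 2 and 12, and within every panel the WT and mD3AKO points overlap.

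Per length of exon, the order of the levels over 25 libraries was Piwil2, Sycp3, Dazl, Ddx4, Piwil1, Mael, Stk31 and Tdrd1. Piwil2 stood at 0.318 ± 0.062 RPKM (CPM per kilobase of exon, mean ± SD) and Sycp3 at 0.218 ± 0.155 RPKM. The gap between these means was smaller than the SD of Sycp3 between single mice, which does not decide the order of the means. Dazl stood at 0.0601 ± 0.0316 RPKM and Ddx4 at 0.0198 ± 0.0134 RPKM. Piwil1, at 0.0067 ± 0.0069 RPKM, and Mael, at 0.0062 ± 0.0113 RPKM, did not differ beyond their spread. Stk31 (0.0029 ± 0.0065 RPKM) and Tdrd1 (0.0012 ± 0.0028 RPKM) followed, on 8 and 5 reads. From Ddx4 down, the gap between neighbours was smaller than the SD of the higher one. That SD is the spread of single mice and does not decide the order of the means. Ddx4 had 49 pooled reads (95% counting interval 36.25 to 64.78) over 3014 exon bases. Piwil1 had 24 (15.38 to 35.71) over 4358 exon bases in the same libraries, so Ddx4 lay above it beyond counting error. From Piwil1 down, the order is not firm. For scale, Dnmt3a in the knockout muscle, where its level was lowest, stood at 2.46 ± 0.352 RPKM.

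The first comparison was between genotypes. Of the 10 genes, 2, Piwil2 and Sycp3, passed the filter on low counts and could be tested in the fit across 16340 genes. Neither was called in any of the 5 contrasts fitted, which were genotype on average, genotype at rest, genotype after exercise, exercise, and the interaction of both. Neither had an unadjusted p under 0.05, which 6.23% of the genes had for genotype on average, and DESeq2 called neither. The genotype effect on average called 0.269% of the genes tested (44 of 16340), the genotype effect at rest 0.0918% (15) and the genotype effect after exercise 0.11% (18). With so few calls in the whole table, 0 of 2 is what the background share gives. Without the filter, 8 of the 10 genes entered the fit and none was called for genotype, where 0.119% of 35398 genes were. Because low counts leave most of these genes outside the fit, the mean CPM of each of the 8 genes with reads was also compared by a 2-sided permutation test over mice, for all mice, rested mice and exercised mice. None of these 24 tests had p under 0.05. Tdrd1 and Stk31 at rest and after exercise, and Mael after exercise, had reads in only 1 to 3 libraries. No split of the mice could bring those tests under 0.05, so they decide nothing.

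The piRNA pathway is described first. Piwil2 (MILI; ENSMUSG00000033644.4, chromosome 14, 70372480 to 70429094, minus strand) encodes a PIWI protein that binds piRNAs in male germ cells and takes part in methylating transposons there. Its counts in rested WT mice were 55, 46, 35, 51 and 68. In rested mD3AKO mice they ran from 21 to 75 with a median of 48, in exercised WT mice from 40 to 80 with a median of 53, and in exercised mD3AKO mice from 37 to 59 with a median of 43.5. The lowest count, 21, was that of mouse 15, whose scaled level of 1.47 CPM lay inside its group. All 4 groups overlapped. Their levels were 1.51 ± 0.305 CPM in rested WT, 1.52 ± 0.355 in rested mD3AKO, 1.69 ± 0.265 in exercised WT and 1.49 ± 0.326 in exercised mD3AKO. The log2 fold change between genotypes was −0.09 (SE 0.12, adjusted p = 0.9999 by edgeR), with a 95% interval of −0.34 to 0.17, that is a fold of 0.788 to 1.12. At rest it was 0.01 (SE 0.18), and after exercise −0.19 (SE 0.17), with an interval of −0.54 to 0.17. With each library left out, the 3 values ran from −0.14 to −0.04, from −0.10 to 0.11 and from −0.29 to −0.11. The permutation test gave p = 0.389 over all mice, and exact permutation tests gave p = 0.948 at rest and p = 0.243 after exercise, which was 0.0644 without exercised mD3AKO mouse 19.

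Piwil1 (MIWI; ENSMUSG00000029423.10, chromosome 5, 128702524 to 128755474, plus strand) encodes a PIWI protein of later germ cells. Rested WT mice had 1, 1, 2, 2 and 2 reads. Rested mD3AKO mice had 0 to 4 reads with a median of 1, exercised WT mice 0 to 2 with a median of 0, and exercised mD3AKO mice 0 to 2 with a median of 1. All 5 rested WT libraries had a read, against 4 of 7 rested mD3AKO, 2 of 7 exercised WT and 4 of 6 exercised mD3AKO. The pooled counts were 11 reads in WT and 13 in mD3AKO, a depth-scaled ratio of 1.13 with a 95% counting interval of 0.466 to 2.78. The permutation test over all mice gave p = 0.908.

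Mael (maelstrom; ENSMUSG00000040629.8, chromosome 1, 166201201 to 166238747, minus strand), which works beside the PIWI proteins in transposon silencing, had 8 reads in all, 5 in WT and 3 in mD3AKO, and never more than 2 in a library. Tdrd1 (ENSMUSG00000025081.13, chromosome 19, 56826209 to 56870012, plus strand), a tudor domain protein that binds PIWI proteins, had 5 reads. Of these, 2 were in rested WT mouse 1, 1 in an exercised WT mouse and 1 in each of 2 exercised mD3AKO mice, and the 7 rested mD3AKO libraries had none. Stk31 (ENSMUSG00000023403.14, chromosome 6, 49395604 to 49469501, plus strand), a kinase-like protein with a tudor domain, had 8 reads, with 3 in rested mD3AKO, 5 in exercised WT and none in rested WT or exercised mD3AKO mice. The depth-scaled mD3AKO to WT ratios of pooled reads, with 95% counting intervals, were 0.572 for both Mael and Stk31 (0.0888 to 2.94) and 0.635 for Tdrd1 (0.0531 to 5.55). The difference of Stk31 in mean CPM over all mice was −0.0075, and ran from −0.0112 to −0.0019 with each library left out. Permutation tests over all mice gave p = 0.837 for Mael (0.286 without mouse 15), p = 0.729 for Tdrd1 and p = 0.389 for Stk31. For Stk31, the exact permutation test after exercise gave p = 0.192. Only 3 exercised libraries had a read of Stk31, too few for that test to reach 0.05 under any split of the mice.

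The RNA-binding proteins of germ cells came next. Dazl (ENSMUSG00000010592.8, chromosome 17, 50279394 to 50293599, minus strand), a regulator of translation in germ cells, had 8, 2, 10, 12 and 5 reads in rested WT mice. It had 2 to 9 reads with a median of 6 in rested mD3AKO, 2 to 7 with a median of 6 in exercised WT and 2 to 12 with a median of 4.5 in exercised mD3AKO. Libraries with 2 reads occurred in every group, and none of the exercised WT libraries went above 7. The level was 0.177 ± 0.0955 CPM in 12 WT mice and 0.177 ± 0.0945 CPM in 13 mD3AKO mice (permutation p = 0.993). The pooled counts were 70 and 73 reads, a ratio of 0.994 with a 95% counting interval of 0.706 to 1.40. In rested mice the level was 0.221 ± 0.123 CPM in WT and 0.175 ± 0.0775 CPM in mD3AKO (exact permutation p = 0.443), and in exercised mice 0.146 ± 0.063 CPM and 0.179 ± 0.119 CPM (exact permutation p = 0.607). Exercised mD3AKO mouse 17 had 12 reads, and without it the level of its group was 0.133 ± 0.0428 CPM, on the other side of the exercised WT mean.

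Ddx4 (vasa; ENSMUSG00000021758.14, chromosome 13, 112598333 to 112652475, minus strand), an RNA helicase of germ granules, had 1, 1, 1, 0 and 3 reads in rested WT mice. Rested mD3AKO mice had 0 to 5 reads with a median of 2, exercised WT mice 0 to 5 with a median of 3, and exercised mD3AKO mice 1 or 2 reads each, with a median of 1.5. Of the exercised WT libraries 5 of 7 reached 3 reads, and none of the 6 exercised mD3AKO libraries did. The levels were 0.0346 ± 0.0296 CPM in rested WT, 0.0554 ± 0.0392 in rested mD3AKO, 0.0908 ± 0.0481 in exercised WT and 0.0488 ± 0.0185 in exercised mD3AKO. The genotypes did not differ past the threshold over all mice (permutation p = 0.361), at rest (exact permutation p = 0.364) or after exercise (exact permutation p = 0.0781). The test after exercise turned on 1 library, exercised WT mouse 18, which had no read: without it the exact permutation p was 0.0065, for 0.106 CPM in 6 WT mice against 0.0488 CPM in 6 mD3AKO mice. In females of both conditions the exact permutation p was 0.0238 (0.0859 CPM in 6 WT and 0.0429 CPM in 6 mD3AKO mice), and in males, where mD3AKO was the higher, it was 0.637. These are single values among 24 tests and their alternatives, and they rest on 49 reads in all.

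**Figure D2:**
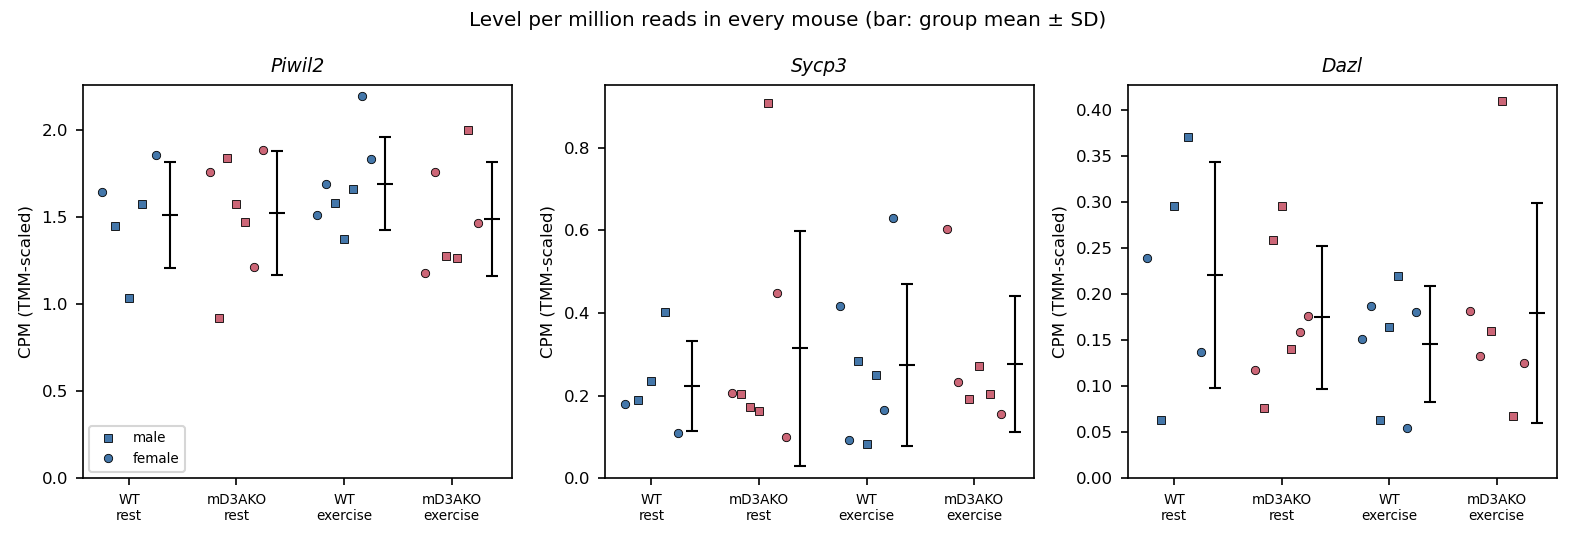
CPM after TMM scaling (vertical axis) of the 3 germline genes with reads in every library, in each mouse of the 4 groups; squares are males, circles females, and the bar beside each group is its mean ± SD. The highest points of Sycp3 (0.909 CPM, mouse 15) and of Dazl in the exercised mD3AKO group (0.41 CPM, mouse 17) stand apart from their groups, and the group means of Piwil2 lie between 1.49 and 1.69 CPM.

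The proteins of meiotic chromosomes were the last group. Sycp3 (ENSMUSG00000020059.9, chromosome 10, 88459569 to 88473236, plus strand) forms the lateral element of the synaptonemal complex, the scaffold that joins paired chromosomes. It had 6, 6, 8, 13 and 4 reads in rested WT mice. In rested mD3AKO mice it had 4 to 17 with a median of 7, in exercised WT 3 to 21 with a median of 8, and in exercised mD3AKO 5 to 20 with a median of 6.5. The highest libraries, with 21, 20 and 17 reads, belonged to 3 different groups. The levels were 0.253 ± 0.161 CPM in WT and 0.297 ± 0.228 CPM in mD3AKO, and the log2 fold change was 0.18 (SE 0.35, adjusted p = 0.9999 by edgeR), with a 95% interval of −0.55 to 0.91, a fold of 0.682 to 1.88. Mouse 15 had the highest level, 0.909 CPM from 13 reads. Without it the mean level was 0.258 CPM in WT and 0.25 CPM in mD3AKO (permutation p = 0.90), so the sign of the difference turned. In the fit, the log2 fold change was 0.0010 without mouse 15, with its sign kept, and −0.021 without exercised mD3AKO mouse 3, and at rest it was −0.041 without mouse 15. At rest the log2 fold change was 0.32 (SE 0.52) and after exercise 0.04 (SE 0.48).

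The reads of Sycp3 have a limit of their own. Of its exon bases, 660 (52.2%) lie under exons of Chpt1 on the opposite strand. With both strands searched, 602 of its 1294 sequence words of 31 bases (46.5%) also occur in Chpt1. The overlap alone gives shared words, so the share of words is not separate evidence of likeness. Chpt1, an enzyme of phospholipid synthesis, had 179498 reads in all, against 210 for Sycp3. Whether reads were assigned by strand is not stated in the sources used here, so reads of the pair cannot be told apart with certainty. The level of Sycp3 and that of Chpt1 had a Spearman rho of 0.54 over the 25 libraries, and Chpt1 itself had a log2 fold change between genotypes of −0.05 (SE 0.10). The part of Chpt1 reads in the Sycp3 count was not tested.

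Sycp1 (ENSMUSG00000027855.13, chromosome 3, 102818499 to 102936100, minus strand), the transverse filament of the synaptonemal complex, and Hormad1 (ENSMUSG00000028109.14, chromosome 3, 95559677 to 95587671, plus strand), which marks chromosome axes that have not yet paired, had 0 reads in each of the 25 libraries. A count of 0 allows up to 3 reads in a group, that is 0.0077 CPM in 12 WT mice and 0.0072 CPM in 13 mD3AKO mice, here by total reads without TMM scaling and for counting error only. This limit is one-sided, and the upper bound of the 2-sided exact Poisson 95% interval is 3.69 reads, or 0.0095 and 0.0089 CPM. Both genes share sequence with copies elsewhere. For Hormad1, 36.3% of the words of 31 bases also occur in other genes, mostly Gm15529, and for Sycp1 15.6%, mostly in the pseudogene Sycp1-ps1. Reads that match more than 1 place may not be counted. No fold is given for these genes.

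**Figure D3:**
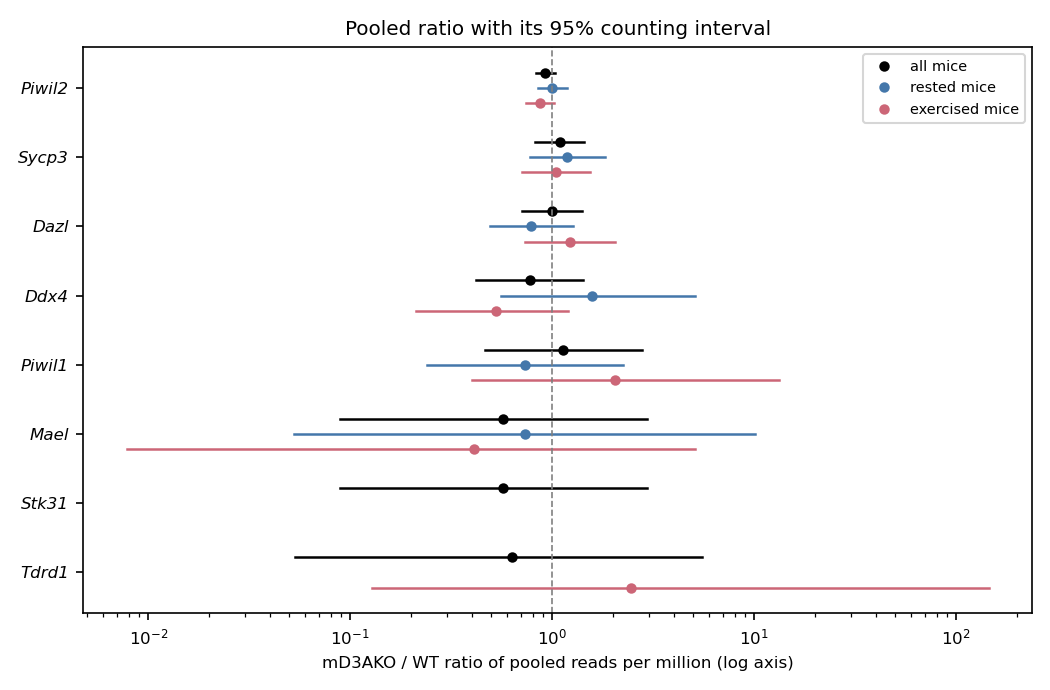
Ratio of pooled reads in mD3AKO to WT, scaled to the summed depth of each genotype (horizontal log axis), for each germline gene with reads. Lines are 95% counting intervals, over all, rested and exercised mice. Ratios where 1 genotype had no read are left out. These are Tdrd1 at rest (0 reads in mD3AKO, 2 in WT), Stk31 at rest (3 and 0) and Stk31 after exercise (0 and 5). The interval for all mice spans 1 for every gene and widens from Piwil2 (0.828 to 1.04, 1268 reads) to Tdrd1 (0.0531 to 5.55, 5 reads).

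The second comparison was with exercise. Exercise called 10.4% of the genes tested (1699 of 16340), and neither Piwil2 nor Sycp3 was among them. The log2 fold change of exercised against rested mice was 0.07 (SE 0.12, adjusted p = 0.852 by edgeR) for Piwil2 and 0.15 (SE 0.35, adjusted p = 0.891 by edgeR) for Sycp3. Pooled over genotypes, the depth-scaled ratio of exercised to rested reads was 0.826 for Dazl, 1.52 for Ddx4 and 0.482 for Piwil1, and each 95% counting interval spanned 1 (0.586 to 1.16, 0.829 to 2.86 and 0.179 to 1.19). The interaction of genotype and exercise was called by edgeR for 0 genes (0%) and reached an unadjusted p under 0.05 for 403 (2.47%), and DESeq2 called 0 as well. With each library left out, the exercise estimate of Piwil2 ran from 0.01 to 0.11. The estimate of the interaction was −0.20 (SE 0.25, −0.30 to −0.09 with each library left out) for Piwil2 and −0.28 (SE 0.71) for Sycp3. Sex differed for many genes, with 10% of the genes called when sex was added to the fit. Piwil2 stood at 1.46 ± 0.299 CPM in 13 males and 1.67 ± 0.289 CPM in 12 females, a log2 difference of −0.18 (SE 0.12, adjusted p = 0.385 by edgeR).

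The list of 52 further germline genes, for meiosis, piRNAs, germ granules and spermatogenesis, was measured in the same way. Of the 52, 7 (13.5%) had no read, among them Stra8, the meiotic inducer, and 8 passed the filter. None of the 8 was called for genotype, where 0.269% of all genes tested were, or for exercise, where 10.4% were, and 0 of 8 is near what those shares give. Their median log2 fold change between genotypes was 0.09, with 6 of 8 above 0, beside a median of 0.01 over all genes tested. The most counted was Tdrkh, a partner of PIWI proteins on mitochondria, with 2.21 ± 0.852 CPM in WT and 2.17 ± 0.663 CPM in mD3AKO. Of its exon bases, 36.7% lie under Oaz3 on the opposite strand, which had 40 reads against 1786 for Tdrkh. Brdt, a bromodomain protein of the testis, stood at 1.23 ± 0.247 and 1.14 ± 0.276 CPM. Tdrd9, a helicase of the piRNA pathway, stood at 0.805 ± 0.19 CPM in WT and 1.02 ± 0.364 CPM in mD3AKO, and its log2 fold change of 0.34 (SE 0.18) was the largest of the 8 (unadjusted p = 0.0691, adjusted p = 0.856 by edgeR).

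The next genes in order were Dnd1 (0.645 and 0.754 CPM in WT and mD3AKO), which protects messages in germ cells, and Syce2 (0.568 and 0.535 CPM), of the central element of the synaptonemal complex. Msh5, of meiotic crossing over, had 0.271 and 0.278 CPM, Nanos3, of primordial germ cells, 0.247 and 0.273 CPM, and Gpat2, of the piRNA pathway, 0.21 and 0.241 CPM. Below the filter, Sycp2, the lateral element partner of Sycp3, had 0.203 and 0.193 CPM. Tex15, of the piRNA pathway, had 0.215 ± 0.154 CPM in WT and 0.126 ± 0.091 CPM in mD3AKO, and had a log2 fold change of −0.68 (SE 0.36, adjusted p = 0.912 by edgeR) in the fit without the filter.

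**Figure D4:**
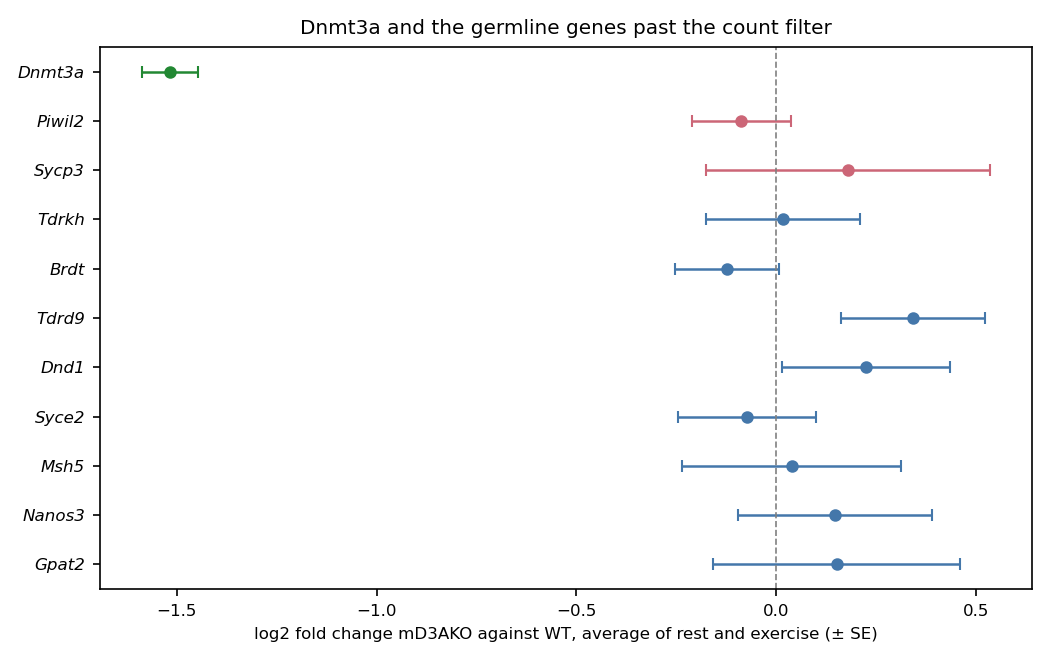
Log2 fold change of mD3AKO against WT, averaged over rest and exercise, with its SE (horizontal axis) for Dnmt3a (green), the 2 germline genes that passed the filter (red) and the 8 further germline genes that passed it (blue), in order of level. Dnmt3a lies at −1.52, and the 10 germline genes lie between −0.12 and 0.34.

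The repressors of germline genes were expressed. All 24 of the list passed the filter, from E2f6 at 160.7 CPM to Uhrf1 at 0.876 CPM, and none was called for genotype. Their median log2 fold change between genotypes was 0.02, with 17 of 24 above 0. Dnmt1, which copies methylation, had −0.04 (SE 0.06) and 16.2 CPM on average, and Dnmt3b had 0.02 (SE 0.15) at 1.02 CPM. Exercise raised 3 of the 24, beside 5.7% of all genes tested (932 of 16340), and the other 21 were not called. The 3 were Max with a log2 fold change of 0.24 (SE 0.05, adjusted p = 0.0025 by edgeR), Rnf2 with 0.24 (SE 0.06, adjusted p = 0.0096) and Rybp with 0.35 (SE 0.10, adjusted p = 0.0254).

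Markers of other cells were measured beside these genes. Of the 37 genes tested from 7 lists, 1 was called for genotype, where 0.269% of all genes were, the satellite cell gene Pax7, with a log2 fold change of 0.48 (SE 0.10, adjusted p = 0.0384 by edgeR) and 3.83 CPM in WT against 5.52 CPM in mD3AKO. The other 5 genes of its list were not called for genotype, and the median log2 fold change of the 6 was 0.03, with 3 above 0. No gene of the list, Pax7 included, was called for genotype at rest or after exercise taken alone. The summed level of the list is carried by Sdc4, at 97.5 CPM on average, and ran from 77.1 to 106.9 CPM in rested WT, 91.6 to 124.6 in rested mD3AKO, 150 to 182.8 in exercised WT and 115.8 to 180 in exercised mD3AKO. With exercise Sdc4 rose (log2 fold change 0.93, adjusted p = 7.774e-09 by edgeR), whereas Pax7 fell by 0.45 (adjusted p = 0.0041) and Myf5 by 0.46 (adjusted p = 0.00084). No other marker tested was called for genotype: 6 of fibroblasts, 6 of endothelium, 4 of immune cells, 6 of adipocytes, 6 of Schwann cells and 3 of testis somatic cells. Their median log2 fold changes were 0.04, −0.0019, 0.19, −0.68, 0.14 and 0.13 in that order, and all 6 adipocyte estimates lay below 0. With exercise, 5 of the 6 endothelial markers fell, beside 4.69% of all genes tested (767 of 16340), and no marker of fibroblasts, immune cells, adipocytes, Schwann cells or testis somatic cells was called. The 6 testis somatic markers were Sox9 at 4.61 CPM, Star at 2.33, Dhh at 1.61, Insl3 at 0.0396, Hsd3b6 at 0.0129 and Cyp17a1 at 0.0095 CPM, and 64.8% of the exon bases of Insl3 are shared with Jak3. Their part in the germline counts was not tested.

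For description, the genes whose levels went most with Piwil2 over the 25 libraries were Nfrkb (Spearman rho 0.762), Nop56 (0.695) and Smarca4 (0.688), and with Sycp3 they were Fam126b (0.835), Lrif1 (0.725) and 1810026B05Rik (0.715). The points share libraries and depth, and no test was made.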

How the data were processed

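RNA-seq of soleus was used from 25 mice. Total RNA was depleted of ribosomal RNA and made into stranded libraries, which were read as paired ends of 75 bases. The deposited counts were made by the authors with STAR 2.5.3a and featureCounts 1.5.3 on mm10 with GENCODE M15 genes, per the submitters' processing notes and the study's methods. The strand setting of the counting is not given in the sources used here. The counts are raw, per gene and per mouse, and no count column was left over. Genes were named through a table of identifiers, which matched 52403 of 52636.

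The 10 germline genes and all lists were chosen with earlier results of these data known. Genes were filtered with filterByExpr (minimum count 10, minimum total 15), leaving 16340. They were fitted with edgeR 4.0.16 (TMM, 1 mean for each of 4 groups, quasi-likelihood F test), with Benjamini-Hochberg adjustment over all genes tested and calls at an adjusted p under 0.05. On simulated data with known changes the fit was tested first. CPM used TMM-scaled library sizes, and RPKM the deposited exon lengths. Mean CPM was compared by 2-sided permutation over mice, exact for rested and for exercised mice and with 100000 resamples for all mice, 24 tests in all, with no adjustment. Poisson and binomial intervals (95%) and the limit of 3 reads for a count of 0 cover counting error only. With a median depth of 32189360 reads, 1 CPM is about 32.2 reads. Of 67 pairs of libraries within groups, none differed by as little as sampling noise (chi-square per gene at least 14.5). The labels number the mice singly, so each library is 1 animal.

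Alternatives were DESeq2 1.42.0, its size factors within edgeR, no filter, sex as a term, each sex alone, each library left out and, for CPM, library totals without TMM. The estimate for sex was read after seeing the data. Named genes were the 10, Dnmt3a, the 10 most counted of the further germline genes, list genes called for genotype or at the ends of their list, and the 3 genes most correlated with each tested gene. Other list genes named, such as Dnmt1, Dnmt3b, Stra8 and those called for exercise, were chosen after their values were seen. Promoter windows came from RefSeq (GRCm38.p6). The analysis used Python 3.11.15, pandas 2.3.3 and SciPy 1.17.1.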

Additional observations from a re-analysis of the deposited data

Results flagged for a closer look

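Within groups where every library had a read, 14 sets of values of the germline genes were screened for a mouse far from the rest of its group (Dixon's criterion at 95%), and 3 stood out. About 1 group in 20 would by chance if the values followed a normal distribution. That was not tested for these low counts, so the share by chance is not known here. Dazl in exercised mD3AKO mouse 17, a male, was at 0.41 CPM (12 reads), with the next mouse at 0.181 CPM. Sycp3 in rested mD3AKO mouse 15, a male, was at 0.909 CPM (13 reads), with the next at 0.449 CPM, a gap of 0.569 of the range against a criterion of 0.568. This is the library in which the 3 most counted genes took 39.5% of the reads, and it had the highest level of Chpt1, the gene that overlaps Sycp3, of all 25 (333.7 CPM). The part of either in its Sycp3 level was not tested. Sycp3 in exercised mD3AKO mouse 3, a female, was at 0.603 CPM (20 reads), with the next at 0.273 CPM. By library totals without TMM scaling, a comparison added after seeing the data, the gap over the range was 0.127 for mouse 15 and 0.579 for mouse 17, below the criterion, and 0.824 for mouse 3, above it. Without mouse 15 the mean of Sycp3 in its group was 0.216 CPM in place of 0.315, and without mouse 3 it was 0.211 in place of 0.277.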

How the results depend on the processing

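Neither Piwil2, under 31 alternatives of the fit, nor Sycp3, under the 30 in which it was tested, was called in any of the 5 contrasts, and without the filter none of 8 germline genes was, whereas the counts over all genes moved. Genes called for genotype on average numbered 44 in the main analysis, 72 with sex as a term, 81 with DESeq2, 23 in males only and 6 in females only, and 35 to 48 with each library left out. At rest the count was 23 with DESeq2 and 4 in males only and in females only, against 15. After exercise it was 28 with DESeq2, 6 in males only and 5 in females only, against 18. Exercise called 966 genes in males only and 512 in females only, against 1699. The fits within 1 sex have fewer mice by construction, and the cause of the other shifts was not tested. No paired analysis was possible because every mouse has its own number and the groups share none. With at least 3 counts asked of a library in place of 1, 5 genes were detected in place of 8, Ddx4 in 7 libraries, Piwil1 in 1, and Mael, Tdrd1 and Stk31 in 0.

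Signs of differences that passed no test turned as follows, and the causes were not tested. For log2 fold changes of Piwil2, genotype on average was 0.035 in males only, genotype at rest −0.12 in females only and exercise −0.051 in females only. With each library left out, genotype at rest ran from −0.10 to 0.11 for Piwil2. For Sycp3 the ranges with each library left out were −0.021 to 0.36 for genotype on average, −0.041 to 0.63 at rest, −0.36 to 0.41 after exercise, −0.048 to 0.32 for exercise and −0.67 to 0.091 for the interaction. Over all 30 alternatives the highest estimates of Sycp3 were 0.41 for genotype on average, 0.788 at rest and 0.775 for exercise. The lowest for the interaction was −0.75. For mean CPM, mD3AKO minus WT over all mice was 0.00509 for Dazl, 0.0116 for Ddx4, 0.00027 for Mael, −0.00233 for Piwil1, 0.0326 for Piwil2 and 0.00418 for Tdrd1 in males only. In rested females it was −0.0117 for Ddx4, −0.00485 for Mael, 0.0125 for Piwil1 and −0.129 for Piwil2, and in exercised females −0.00598 for Piwil1. With library totals without TMM it was −0.00393 for Sycp3 after exercise, and at rest −0.0012 for Mael and −0.0231 for Piwil2. With each library left out, the difference over all mice ran from −0.0198 to 0.0173 CPM for Dazl, −0.00809 to 0.0782 for Sycp3, −0.00711 to 0.00204 for Mael, −0.00500 to 0.00549 for Piwil1 and −0.00496 to 0.00221 for Tdrd1. At rest it ran from −0.00974 to 0.136 for Sycp3, −0.00748 to 0.00689 for Mael and −0.105 to 0.116 for Piwil2. After exercise it ran from −0.0126 to 0.0554 for Dazl, −0.0636 to 0.0607 for Sycp3 and −0.0118 to 0.000626 for Mael. The permutation tests of Tdrd1 and Stk31 at rest and after exercise, and of Mael after exercise, had too few libraries with reads to pass. Of the 24 permutation tests, 0 passed in the main analysis, 1 in females only (Ddx4 over all mice) and 0 to 1 with each library left out. The one that passed was Ddx4 after exercise, without WT mouse 18, at −0.0573 CPM.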
